A study of Homo sapiens with 22 samples.

Results

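The 9 genes described here encode proteins that cut, anchor or bind the extracellular matrix: the plasminogen activators PLAU and PLAT, the urokinase receptor PLAUR, the activator inhibitor SERPINB2, the matrix metalloproteinases MMP9, MMP14, MMP1 and MMP3, and the matrix glycoprotein THBS1. For each gene, every region of the deposited region tables that overlapped its GRCh38 RefSeq span extended by 50 kb on each side was taken. This gave 302 regions of 409446 in the series. They comprised 82 of 95436 H3K27ac regions, 100 of 138731 Jun regions, 46 of 66168 CTCF regions and 74 of 109111 Rad21 regions. The windows of MMP1 and MMP3 overlap and share 2 CTCF regions. The windows also hold parts of neighbouring genes, so a region is placed by its distance from the gene span and is not assigned to the gene as its regulator.

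The cells were K562, a human leukemia line, of the genotype given as WT, kept in 25 nM PMA (a phorbol ester that activates protein kinase C) for 0, 6 or 72 h to induce megakaryocyte differentiation. Chromatin of formaldehyde-fixed cells was profiled with antibodies to H3K27ac (acetylated lysine of histone H3, a mark of active promoters and enhancers), Jun (which forms part of AP-1, a dimeric transcription factor), CTCF (an architectural DNA-binding protein) and Rad21 (a cohesin subunit). H3K27ac, Jun and CTCF were sampled at all 3 times and Rad21 at 0 and 72 h, with 2 libraries per group and 22 libraries in 11 groups. Nothing in the labels says whether the 2 libraries of a group came from separate cultures, so the p-values measure the spread between these libraries, which may be technical. No RNA or protein was measured in these files. The question behind the series, as its title states it, is how features at the anchors and in the interior of chromatin loops go with loop changes in differentiation.

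In the plasminogen system, PLAU (urokinase) and PLAT (tissue-type activator) cleave plasminogen into plasmin, PLAUR holds urokinase on the cell surface, and SERPINB2 inhibits both activators. Plasmin can in turn activate pro-forms of matrix metalloproteinases, among them the collagenase MMP1, the stromelysin MMP3 and the gelatinase MMP9, while MMP14 is anchored in the membrane and activates other members of the family. THBS1, which megakaryocytes make and platelets store in their granules, binds matrix, cells and proteases. Several of these genes are known targets of AP-1, whose binding site has the core TGANTCA, and phorbol esters are classical inducers of AP-1.

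RefSeq promoter windows (build GRCh38.p14) were held for 5 of the 9 genes, 6 windows in all with 2 for PLAU. The 250 bases before the start are shown, 5′ to 3′ on the gene's strand, for the windows that a region of the series overlapped (PLAUR, THBS1 and the first window of PLAU) and for SERPINB2, which also holds an AP-1 core. Capitals mark TGANTCA on either strand.
PLAUR, chr19:43670170-43670419, minus strand: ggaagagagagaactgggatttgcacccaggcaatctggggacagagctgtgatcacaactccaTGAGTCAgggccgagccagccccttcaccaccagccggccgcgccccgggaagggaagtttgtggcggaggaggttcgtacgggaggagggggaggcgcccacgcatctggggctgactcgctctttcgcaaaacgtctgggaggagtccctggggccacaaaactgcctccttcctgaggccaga
SERPINB2, chr18:63887455-63887704, plus strand: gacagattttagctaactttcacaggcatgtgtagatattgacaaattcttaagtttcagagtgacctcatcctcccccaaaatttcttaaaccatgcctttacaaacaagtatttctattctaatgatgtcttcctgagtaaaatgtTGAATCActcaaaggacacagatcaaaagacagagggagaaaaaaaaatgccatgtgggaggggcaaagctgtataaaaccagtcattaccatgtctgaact
THBS1, chr15:39580829-39581078, plus strand: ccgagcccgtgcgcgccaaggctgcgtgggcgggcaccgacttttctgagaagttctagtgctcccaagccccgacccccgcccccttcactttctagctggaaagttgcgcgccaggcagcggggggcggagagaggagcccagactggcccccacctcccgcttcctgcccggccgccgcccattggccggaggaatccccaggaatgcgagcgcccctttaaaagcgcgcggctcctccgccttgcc
PLAU, chr10:73910360-73910609, plus strand: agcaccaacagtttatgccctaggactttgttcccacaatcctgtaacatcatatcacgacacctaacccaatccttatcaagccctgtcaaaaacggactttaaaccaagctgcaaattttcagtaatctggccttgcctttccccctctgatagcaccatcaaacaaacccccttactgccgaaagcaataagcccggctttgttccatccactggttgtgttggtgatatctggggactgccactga
The core TGANTCA was present in 2 of the 6 windows, at -186 in PLAUR and at -102 in SERPINB2 relative to the start, against 6.57% of 35116 RefSeq windows of the same length. The SP1 core GGGCGG was present in 3 of the 6 windows (THBS1, MMP14 and the second window of PLAU), against 42.6%. The GATA core AGATAA and the ETS core CCGGAA were in none of the 6, against 9.17% and 14.5%. Both strands were searched for each motif, and a match is a string of letters, not a measured site. The PLAUR window was overlapped by an H3K27ac, a Jun and a Rad21 region, the THBS1 window and the first PLAU window by an H3K27ac region each, and the other windows by no region.

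Across the windows, 63 of 82 H3K27ac regions changed between 0 and 72 h, with 42 higher and 21 lower, where a called change is an adjusted p under 0.05 in edgeR's quasi-likelihood test. Over all 94865 regions tested, 81.5% were called, 43.4% higher and 38.1% lower, so the share of changed regions in the windows was near the background. The median log2 fold change at 72 h was 0.70 in the windows and 0.18 over all regions. At 6 h 48 of the 82 were called (background 58.6%), 33 higher (background 32.3%) and 15 lower (background 26.3%). Between 6 and 72 h 46 were called (background 63.8%), 29 higher (background 33.1%) and 17 lower (background 30.8%). The lower count was 6 with DESeq2, 10 without 72 h replicate 1 and 8 without 72 h replicate 2, and the higher one 27, 25 and 27. The contrasts of 6 and 72 h share the 0 h libraries and are given side by side only. With scaling to total counts the split of the 6 h calls was 40 higher and 10 lower, and 1 called region changed sign.

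Of 100 Jun regions, 56 were called at 72 h (background 53.7% of 132947), 32 higher (background 28.0%) and 24 lower (background 25.7%). At 6 h 28 were called (background 25.3%), 14 in each direction (background 13.1% higher and 12.2% lower). Between 6 and 72 h 24 were called (background 26.2%), 11 higher (background 12.7%) and 13 lower (background 13.5%). The shares again lay near the background. The majority at 72 h depended on the setting, with 20 higher and 23 lower under DESeq2, 17 and 23 without 72 h replicate 2, and 19 and 18 without 72 h replicate 1. Scaling to total counts turned the 3 splits to 46 higher and 14 lower at 72 h, 23 and 8 at 6 h, and 28 and 1 between 6 and 72 h, and no called Jun region changed sign. Without 0 h replicate 1, 0 h replicate 2 or 72 h replicate 1 there were 17, 18 and 18 calls at 6 h, without 72 h replicate 1 there were 37 at 72 h, and without either 72 h replicate 8 between 6 and 72 h. The share of Jun counts on mitochondrial DNA was 24.0% and 27.7% in the 0 h libraries, 21.3% and 18.1% at 6 h, and 9.07% and 8.58% at 72 h, and its part in these results was not tested. For Rad21, 19 of 65 tested regions were called at 72 h (background 23.3% of 83750), 15 higher (background 15.4%) and 4 lower (background 7.91%), and with total counts the split was 10 and 6. Without 72 h replicate 1 or 2 there were 7 and 9 Rad21 calls. For CTCF, 3 of 41 tested regions were called at 72 h, all lower (background 6.79% of 58156, 4.07% higher and 2.72% lower). Between 6 and 72 h 1 was called, also lower (background 2.18%, 1.73% lower). The 72 h count was 0 without 0 h replicate 1, 1 without 0 h replicate 2 or either 72 h replicate, and 11 without either 6 h replicate.

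The summed H3K27ac signal of a window rose many times over at THBS1 and 2.02 times at PLAT. At SERPINB2 it went from no counts to a small signal, and in the other windows it differed less. Signal is given as CPM, counts scaled to a common library size, after TMM scaling, which divides each library's counts by a factor set from the bulk of regions. Summed over the THBS1 window, H3K27ac was 2.44 and 3.48 CPM before PMA, 8.61 and 9.11 after 6 h, and 74.3 and 77.3 after 72 h, 25.6 times the 0 h mean after 72 h. The PLAT window rose from 28.6 and 30.6 CPM to 56.8 and 47.8 after 6 h and 59.3 and 60.2 after 72 h. In the PLAU window the sum was 200.4 and 201.4 CPM before PMA and 258.9 and 261.8 after 72 h. The sums of the PLAUR, MMP9 and MMP14 windows were lower in both 72 h libraries than in both 0 h libraries, at 0.922, 0.782 and 0.936 of the 0 h mean. Total counts raise the 72 h values by 0.23 on the log2 scale, which exceeds the differences at PLAUR and MMP14. Summed Jun signal rose 2.88 times at THBS1, from 28.3 and 22.9 to 72.3 and 75.4 CPM, and was 0.493 of the 0 h mean at PLAUR and 0.535 at MMP14 (from 115.4 and 125.7 to 62.4 and 66.6 CPM). Total counts raise the 72 h Jun values by 0.56 on the log2 scale, which makes the falls at PLAUR and MMP14 smaller and the rise at THBS1 larger.

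**Figure D1:**
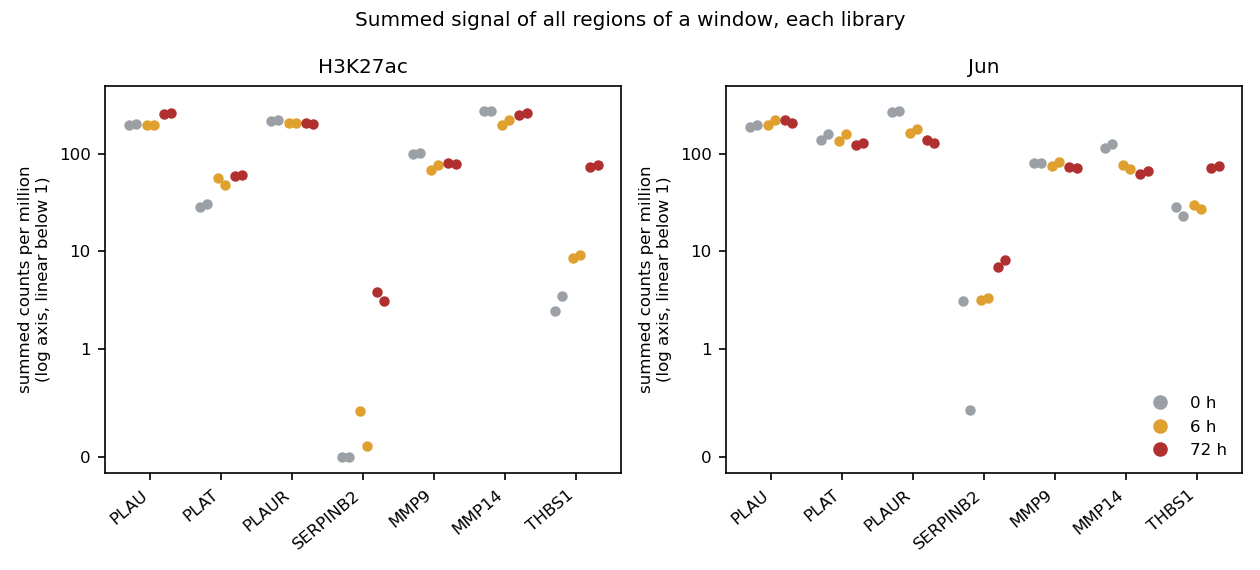
Summed H3K27ac (left) and Jun (right) signal of all regions of 7 gene windows in CPM, on a log axis that is linear below 1; each point is a library, grey at 0 h, orange at 6 h and red at 72 h. THBS1 rises in H3K27ac from 2.44 and 3.48 to 74.3 and 77.3, while the Jun sum of PLAUR falls from 272.1 and 274.3 to 138.4 and 130.7.

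PLAU had its largest gain upstream of the gene and its largest loss beyond the other end. Of its 23 H3K27ac regions 9 rose (background 43.4%) and 8 fell (background 38.1%) after 72 h. The largest rise was at chr10:73898506-73899895, 8.9 kb upstream of the span, with 62 and 62 counts before PMA, 169 and 206 after 6 h, and 1298 and 1559 after 72 h. These are 3.52 and 3.27, 11.8 and 10.1, and 47.0 and 56.8 CPM, and the 3 times do not overlap. The log2 fold change was 1.68 (SE 0.17) after 6 h and 3.93 (SE 0.15) after 72 h (edgeR adjusted p = 8.93e-18).

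Jun and Rad21 rose at the same place. The Jun region chr10:73898897-73899802 had 10.7 and 9.17 CPM before PMA, 17.9 and 22.4 after 6 h and 34.9 and 28.4 after 72 h, a log2 fold change of 1.67 (SE 0.21) after 72 h. Peaks of Jun were already called there in both 0 h libraries, whereas H3K27ac peaks were called in neither. The Rad21 region chr10:73898902-73899509 rose from 2.20 and 2.32 to 11.6 and 10.4 CPM, a log2 fold change of 2.28 (SE 0.37).

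The largest fall of H3K27ac was 12.5 kb beyond the other end of PLAU, at chr10:73930018-73931489, from 61.6 and 57.6 CPM before PMA to 21.5 and 24.7 after 6 h and 7.96 and 9.18 after 72 h. The fitted log2 change was -1.36 (SE 0.11) after 6 h and -2.80 (SE 0.12) after 72 h. Both Jun regions under it fell, which were singled out after their values were seen: the log2 fold change was -2.19 (SE 0.28) at chr10:73930609-73931218 and -1.36 (SE 0.28) at chr10:73930079-73930605, the latter -0.80 with total counts. Rad21 at chr10:73930120-73931518 had 26.4 and 19.4 CPM before PMA and 7.29 and 9.61 after 72 h, a log2 fold change of -1.45 (SE 0.28) that was not called without 72 h replicate 1 (-1.21, adjusted p = 0.0662). The upstream and the far region were chosen as the largest rise and fall of the window in H3K27ac and in Rad21. The upstream Jun region was likewise the largest Jun rise. The opposite directions at these places therefore follow from the choice and are no separate result.

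At the PLAU transcript start marks differed. The small H3K27ac region over the first promoter window, chr10:73910413-73910652, had 3.29 and 1.48 CPM before PMA and 1.30 and 1.42 after 72 h, and its log2 fold change of -0.80 (SE 0.36) lost its call under total counts, DESeq2, the replicate block, the fit of 2 time points and without any of 0 h replicate 1, 72 h replicate 1 or 72 h replicate 2 (adjusted p from 0.057 to 0.805). It was -0.12 without 0 h replicate 1 and -1.27 without 0 h replicate 2. The region chr10:73907806-73909416, which reaches into the span and was named after its values were seen, rose from 14.4 and 14.6 CPM to 29.2 and 30.5 after 6 h and stayed at 29.4 and 28.7 after 72 h. Overlapping it, Rad21 at chr10:73908821-73909426 rose from 4.88 and 7.39 to 16.1 and 16.4 CPM, a log2 fold change of 1.42 (SE 0.30). Jun at chr10:73908819-73909497, the strongest Jun region of the window, had 34.3 and 39.8 CPM before PMA and 23.9 and 22.9 after 72 h. The change on the log2 scale of -0.66 (SE 0.19) was -0.10 with total counts (adjusted p = 0.688) and was not called without 0 h replicate 2, 72 h replicate 1 or 72 h replicate 2 (adjusted p from 0.0614 to 0.0817).

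**Figure D2:**
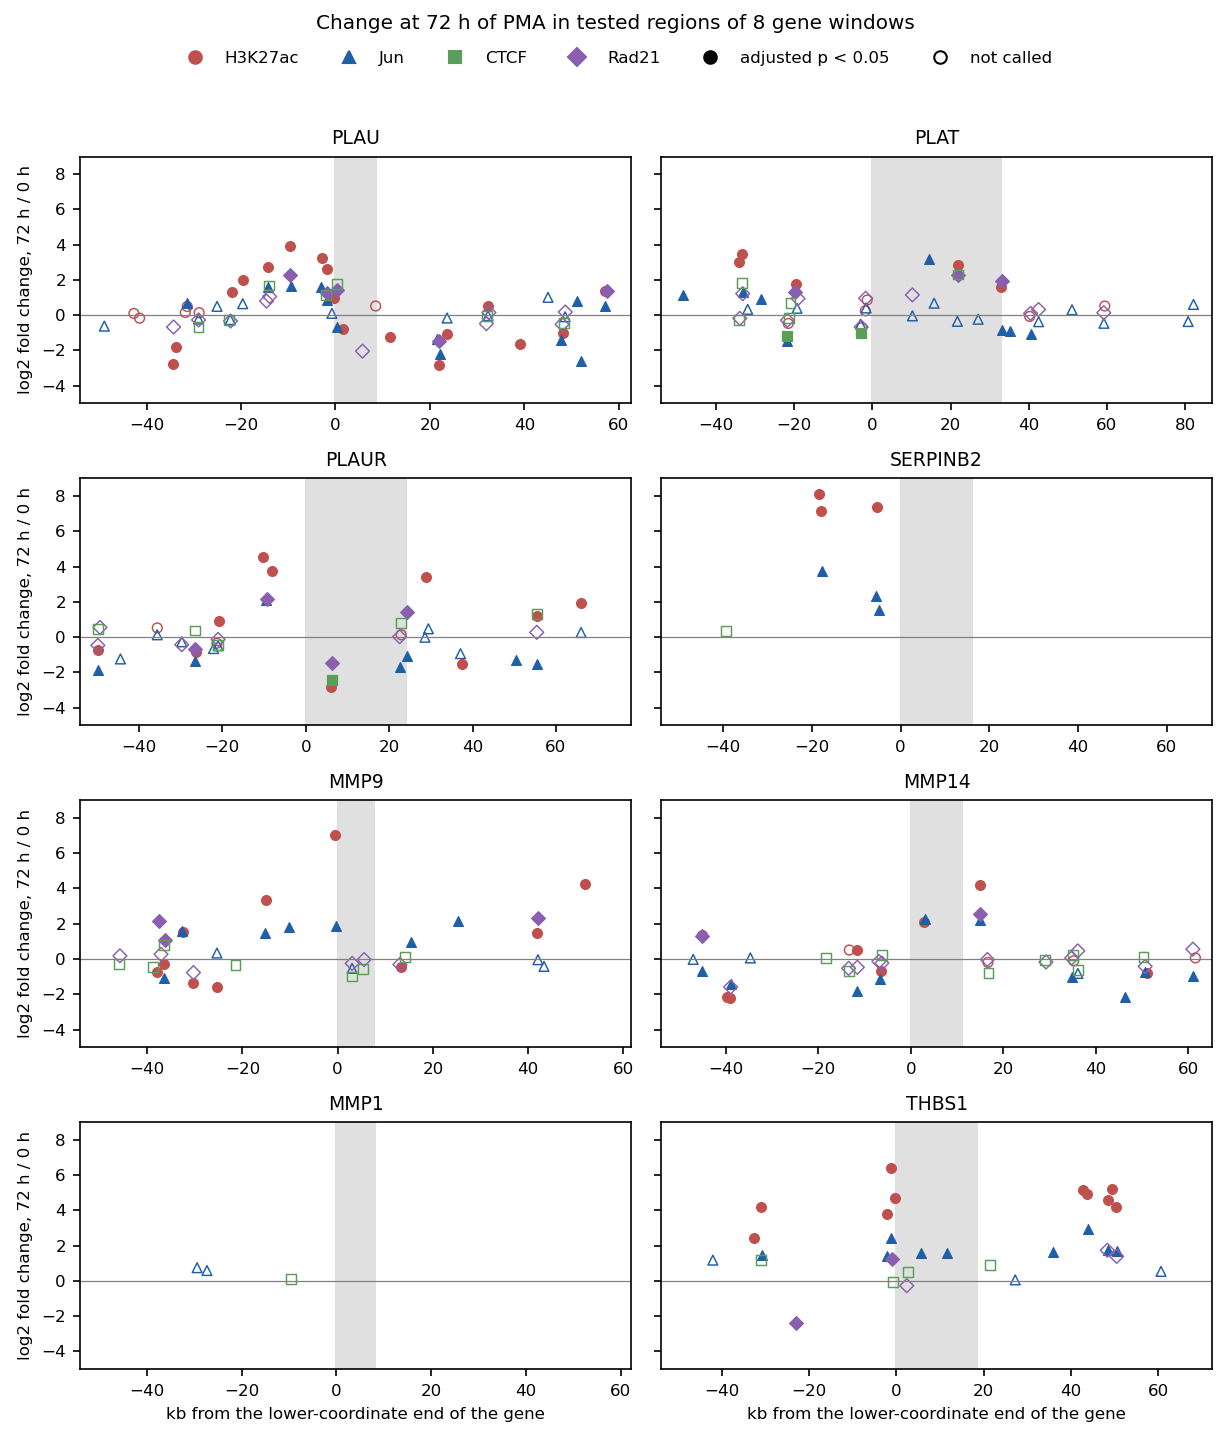
Log2 fold change of 72 h over 0 h against the distance in kb from the lower-coordinate end of the gene, for tested regions in 8 windows; the grey band is the gene span, shapes and colours mark the antibody, and filled points are called at an adjusted p under 0.05. In THBS1 and SERPINB2 the H3K27ac points are filled and above 0, whereas PLAU, PLAUR, MMP9 and MMP14 have filled points on both sides of 0.

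PLAT gained H3K27ac inside the gene and below it. No H3K27ac region of its window was called lower at 72 h than at 0 h, though 2 were called lower between 6 and 72 h. The log2 fold changes after 72 h reached down to -0.71, which was not called. Of 11 regions 5 rose after 72 h (background 43.4%), 0 fell (background 38.1%) and 6 were not called. The share that rose was near the background. The largest rise was at chr8:42140809-42142051, 32.7 kb below the span, from 1.48 and 0.790 CPM before PMA to 2.31 and 2.41 after 6 h and 11.2 and 13.9 after 72 h, a log2 fold change of 3.47 (SE 0.25). It lies in the uncharacterised gene LOC107986939. A region inside the span, chr8:42195782-42197226, rose from 1.87 and 0.949 CPM to 7.21 and 4.43 after 6 h and 11.3 and 9.07 after 72 h, a log2 fold change of 2.86 (SE 0.27). It was named after its values were seen, as was the region described next.

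The region chr8:42154175-42156175 in the neighbouring gene AP3M2 peaked early. It had 2.56 and 4.37 CPM before PMA, 20.2 and 15.7 after 6 h and 12.4 and 11.4 after 72 h. The log2 change was 2.35 (SE 0.20) after 6 h and 1.77 (SE 0.20) after 72 h. The decline after 6 h, -0.58 (SE 0.16), was not called with DESeq2 (-0.47, adjusted p = 0.0783) or without 6 h replicate 1 (-0.40, adjusted p = 0.0646).

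Jun at PLAT moved both ways, with 4 of 21 regions higher (background 28.0%) and 4 lower (background 25.7%). The largest rise, 3.21 (SE 0.44), was inside the span at chr8:42188945-42189443, where 4 and 4 counts before PMA became 12 and 13 after 6 h and 113 and 130 after 72 h. No H3K27ac region of the table overlaps it. The strongest Jun region, chr8:42214729-42215644, 7.2 kb above the span, fell from 31.8 and 39.4 to 15.8 and 17.9 CPM, a log2 fold change of -1.08 (SE 0.19) that was -0.51 with total counts. Rad21 rose inside the gene at chr8:42196179-42196824, from 2.67 and 1.27 to 11.2 and 8.48 CPM (log2 fold change 2.26, SE 0.41), under the H3K27ac region described above. The Jun region there, chr8:42196137-42196802, was at 16.9 and 21.1 CPM before PMA and 15.1 and 14.8 after 72 h and was not called (-0.35, adjusted p = 0.168). Its sign depends on the scaling, since it was 0.22 with total counts, and it was called at -0.44 in the fit of 2 time points and without 6 h replicate 2.

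Acetylation at the PLAUR promoter changed little while flanking regions changed more. The H3K27ac region over its start, chr19:43667751-43670222, held 32.1 and 32.4 CPM before PMA, 34.1 and 32.0 after 6 h and 36.8 and 33.8 after 72 h, a log2 fold change of 0.13 (SE 0.11) after 72 h that was not called. It was called as higher with total counts (0.37, adjusted p = 0.00136) and in the fit of 2 time points (0.21, adjusted p = 0.0367). The strongest Jun region of the window lies in it, at chr19:43668066-43669286, and fell from 63.1 and 68.5 CPM to 36.3 and 38.9 after 6 h and 21.8 and 18.9 after 72 h. The log2 fold change was -0.81 (SE 0.19) after 6 h and -1.69 (SE 0.18) after 72 h (adjusted p = 2.53e-07). The Jun region that overlaps the printed promoter, chr19:43670027-43670580, fell from 13.3 and 17.1 to 7.51 and 7.05 CPM, a log2 fold change of -1.06 (SE 0.22) that was -0.49 with total counts (adjusted p = 0.0669).

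Rad21 over that promoter, chr19:43670156-43670516, went the other way, from 2.04 and 3.8 to 6.85 and 8.86 CPM. The fitted log2 change of 1.45 (SE 0.40) was not called with DESeq2 (adjusted p = 0.103), without 0 h replicate 1 (adjusted p = 0.0589) or without 72 h replicate 2 (adjusted p = 0.101). CTCF at chr19:43668286-43669662 was at 14.3 and 15.2 CPM before PMA and 28.1 and 22.6 after 72 h. This was not called (0.78, adjusted p = 0.0754), but it was with total counts, the replicate block, the fit of 2 time points and without 6 h replicate 1 or 2 (adjusted p from 0.0278 to 0.0483).

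Acetylation at PLAUR appeared on both sides of the gene. At chr19:43634837-43636914, 9.2 kb beyond its 3′ end in the gene CADM4, 17 and 26 counts before PMA became 125 and 201 after 6 h and 767 and 746 after 72 h. The log2 fold change was 2.99 (SE 0.22) after 6 h and 4.54 (SE 0.19) after 72 h (adjusted p = 4.09e-17). Jun at chr19:43636124-43637147 rose from 3.79 and 2.72 CPM to 15.4 and 19.7 after 6 h and 14.2 and 13.7 after 72 h, with log2 fold changes of 2.44 (SE 0.27) and 2.09 (SE 0.26). Both 6 h libraries lay above both 72 h libraries in Jun there, a difference that was not called, while H3K27ac went on rising. A Rad21 region of few counts at chr19:43636727-43636999 (5 and 2 before PMA, 23 and 12 after 72 h) rose by 2.16 (SE 0.77), a call lost under total counts, DESeq2, no count filter and without 0 h replicate 2, 72 h replicate 1 or 72 h replicate 2 (adjusted p from 0.0505 to 0.697).

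A second gain lies 4.2 kb upstream of the PLAUR start, at chr19:43674356-43675575, and was named after its values were seen. H3K27ac there rose from 1.14 and 1.74 CPM to 6.93 and 5.76 after 6 h and 14.1 and 16.7 after 72 h (log2 fold change 3.41, SE 0.22). Jun at chr19:43674286-43675096 was at 16.2 and 12.5 CPM before PMA and 14.7 and 13.8 after 72 h, a log2 fold change of -0.01 (SE 0.20). Under total counts it was 0.55 (adjusted p = 0.0304), so its direction depends on the scaling.

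A region inside PLAUR lost all 3 of H3K27ac, CTCF and Rad21. H3K27ac at chr19:43651835-43652474 fell from 7.04 and 6.64 CPM to 4.55 and 2.76 after 6 h and 1.19 and 0.728 after 72 h, a log2 fold change of -2.82 (SE 0.29) after 72 h (adjusted p = 2.06e-09). CTCF at chr19:43652191-43652737 had 119 and 43 counts before PMA, 66 and 63 after 6 h and 15 and 35 after 72 h. The change on the log2 scale of -2.43 (SE 0.35, adjusted p = 0.00296) was not called without 0 h replicate 1, the library with 119 counts (-1.85, adjusted p = 0.058). Rad21 at chr19:43652191-43652475 fell from 4.56 and 5.49 to 1.34 and 2.26 CPM, a log2 fold change of -1.49 (SE 0.49) whose call was lost with DESeq2 and without any 1 of the 4 libraries (adjusted p from 0.0699 to 0.341). Over the window 6 of 13 H3K27ac regions rose (background 43.4%) and 4 fell (background 38.1%). Of 16 Jun regions 1 rose (background 28.0%) and 6 fell (background 25.7%).

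SERPINB2 went from no H3K27ac counts to a small signal. All 3 H3K27ac regions of its window, each upstream of the gene, held 0 counts in both 0 h libraries. The region chr18:63869069-63869563, 18.1 kb upstream, held 0 and 0 counts after 6 h and 54 and 35 after 72 h, at least 19.7-fold higher than a floor of 3 counts over the 0 h group. The region chr18:63882157-63882356, 5.3 kb upstream, held 1 and 1 counts after 6 h and 30 and 25 after 72 h, at least 12.2-fold higher, and chr18:63869615-63869870 held 5 and 1 after 6 h and 21 and 25 after 72 h, at least 10.2-fold higher. All 3 were called after 72 h (adjusted p from 1.77e-06 to 7.84e-05). No H3K27ac region of the table lies over the gene or its promoter.

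Jun rose in all 3 Jun regions of the SERPINB2 window (background 28.0%), from low counts. At chr18:63869654-63870183 there were 0 and 2 counts before PMA, 4 and 6 after 6 h and 38 and 56 after 72 h, a ratio of 14.6 with a counting interval from 3.93 to 122.2. On the log2 scale its change of 3.76 (SE 0.84) was 7.69 without 0 h replicate 2, which leaves the library with 0 counts. At chr18:63882512-63883044 the 0 h libraries held 16 and 1 counts and the 72 h libraries 71 and 89. The log2 change of 1.53 (SE 0.54) was 0.62 without 0 h replicate 2, the library with 1 count (adjusted p = 0.296), and 4.55 without 0 h replicate 1, and it was not called without 72 h replicate 1 or 2 or with DESeq2 (adjusted p from 0.092 to 0.179). The only CTCF region of the window tested was not called, and its 1 Rad21 region was too low to test.

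MMP9 gained acetylation directly below its span, and regions farther out went both ways. At chr20:46007978-46008732, 0.2 kb below the span, H3K27ac had 1 and 0 counts before PMA, 27 and 64 after 6 h and 141 and 97 after 72 h. The ratio of 6 to 0 h was 96.2 with a counting interval from 16.8 to 3841, and that of 72 to 0 h was 158.1 with an interval from 28.1 to 6269. Both later times lay above both 0 h libraries, and the change after 72 h had an adjusted p of 2.91e-10. The difference between 6 and 72 h was smaller (log2 fold change 0.75, SE 0.30).

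**Figure D3:**
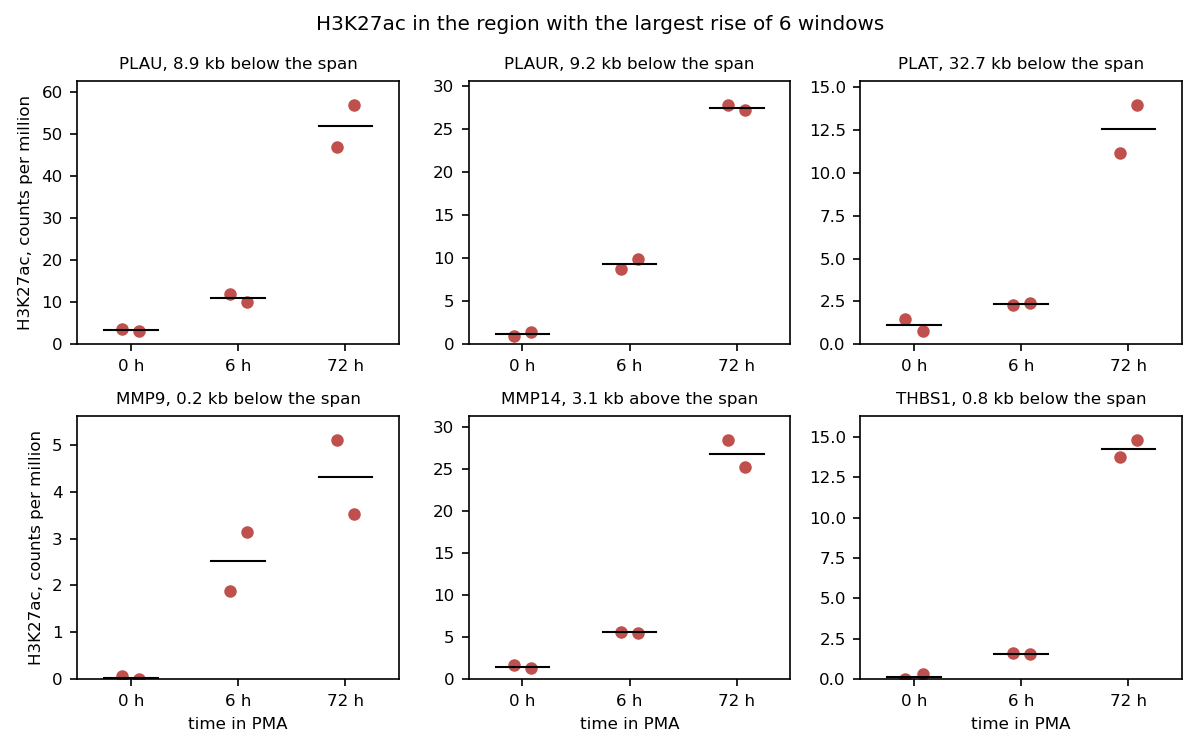
H3K27ac in CPM at 0, 6 and 72 h in the region with the largest rise of 6 windows; each point is a library, the line is the mean of the 2, and each axis starts at 0 with its own scale. MMP9 had reached 1.89 and 3.15 at 6 h of 5.10 and 3.53 at 72 h, whereas MMP14 was at 5.60 and 5.51 at 6 h and 28.4 and 25.2 at 72 h.

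Over the MMP9 region, Jun at chr20:46007935-46009022, a region that overlaps it and was named after its values were seen, rose from 1.31 and 3.01 CPM to 3.40 and 6.39 after 6 h and 7.56 and 8.4 after 72 h. The log2 fold change was 1.88 (SE 0.35) after 72 h. At 6 h it was 1.20 (SE 0.42, adjusted p = 0.0389), a call lost with DESeq2, in the fit of 2 time points and without 0 h replicate 1, 6 h replicate 2, 72 h replicate 1 or 72 h replicate 2 (adjusted p from 0.077 to 0.504), and it was 1.93 without 0 h replicate 2. The largest Jun rise of the window, 2.16 (SE 0.60), was 17.5 kb above the span in the neighbouring gene SLC12A5, at chr20:46034024-46034418, from 5 and 2 counts to 45 and 58. It was not called without 0 h replicate 2 or 72 h replicate 2 (adjusted p of 0.0623 and 0.0774). Jun rose in 6 of 11 regions of the window (background 28.0%) and fell in 1 (background 25.7%).

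The fall was at chr20:45971951-45973105 in the neighbouring gene ZNF335, the strongest Jun region of the window, from 48.4 and 49.0 to 24.6 and 21.8 CPM. The log2 fold change was -1.07 (SE 0.18) and -0.51 with total counts. H3K27ac over it, chr20:45971605-45973304, was at 53.8 and 54.6 CPM before PMA and 44.6 and 42.8 after 72 h. Its change of -0.31 (SE 0.11) was not called with total counts (-0.08, adjusted p = 0.42) or without 0 h replicate 1, 0 h replicate 2 or 72 h replicate 2 (adjusted p from 0.0517 to 0.0704). Rad21 there, chr20:45972251-45972886, rose from 6.92 and 9.71 to 15.8 and 18.3 CPM. The fitted log2 change of 1.05 (SE 0.28) was not called with DESeq2 or without 72 h replicate 1 or 2 (adjusted p from 0.0518 to 0.116).

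H3K27ac in the MMP9 window rose in 5 of 10 regions (background 43.4%) and fell in the other 5 (background 38.1%). The largest fall was 25.0 kb below the span at chr20:45983042-45983942, from 8.12 and 8.96 CPM to 3.64 and 2.41 after 6 h and 2.53 and 3.24 after 72 h, a log2 fold change of -1.56 (SE 0.22) after 72 h. The largest Rad21 rise was in SLC12A5 at chr20:46050858-46051140, from 1.1 and 1.05 to 5.21 and 5.84 CPM (log2 fold change 2.33, SE 0.52). Inside MMP9 itself the strongest CTCF region of the window, chr20:46013638-46014703, was at 93.8 and 88.8 CPM before PMA and 62.4 and 60.4 after 72 h and was not called (log2 fold change -0.57, adjusted p = 0.182). It was called in the fit of 2 time points and without 6 h replicate 1 or 2 (adjusted p from 0.0321 to 0.0498).

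MMP14 gained a region 3.1 kb beyond its 3′ end in which H3K27ac, Jun and Rad21 rose together. H3K27ac at chr14:22850860-22852235 had 29 and 25 counts before PMA, 80 and 112 after 6 h and 785 and 693 after 72 h, with log2 fold changes of 1.91 (SE 0.22) and 4.18 (SE 0.19, adjusted p = 1.25e-16). Jun at chr14:22851146-22851869 rose from 2.19 and 1.72 CPM to 7.95 and 4.20 after 6 h and 8.94 and 9.12 after 72 h. Its change after 6 h, 1.60 (SE 0.39), was not called without 6 h replicate 1 (1.1, adjusted p = 0.0763), and after 72 h it was 2.20 (SE 0.33). Rad21 at chr14:22851385-22851721 rose from 1.42 and 1.05 to 8.34 and 6.60 CPM, a log2 fold change of 2.56 (SE 0.46).

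The CTCF region next to it, chr14:22852851-22853967, the strongest of the MMP14 window, was at 132.5 and 133.2 CPM before PMA, 75.8 and 133.8 after 6 h and 78.8 and 72.9 after 72 h. The change of -0.81 (SE 0.31) was not called (adjusted p = 0.1), but it was with the replicate block, in the fit of 2 time points and without 6 h replicate 1 or 2 (adjusted p from 0.00585 to 0.042). Within the gene, H3K27ac at chr14:22839169-22839919 stayed at 0.909 and 0.632 CPM before PMA and 0.700 and 0.640 after 6 h and rose to 4.02 and 2.55 after 72 h (log2 fold change 2.09, SE 0.38). Jun within it, chr14:22839447-22839865, had 4 and 0 counts before PMA and 31 and 33 after 72 h. Its change of 2.27 (SE 0.82) was not called with DESeq2 or without 0 h replicate 2, 72 h replicate 1 or 72 h replicate 2 (adjusted p from 0.115 to 0.248), and was 7.15 without 0 h replicate 1. No region of any of the 4 tables overlapped the 250 bases before the MMP14 start.

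Away from the gene, the MMP14 window lost Jun. Of 13 Jun regions 8 fell (background 25.7%) and 2 rose (background 28.0%). The strongest, chr14:22870843-22871963 in the neighbouring gene LRP10, fell from 21.3 and 30 to 12.1 and 13.3 CPM, a log2 fold change of -1.01 (SE 0.20) that was -0.44 with total counts (adjusted p = 0.0675). The H3K27ac region around it, chr14:22870517-22873152, was at 81.0 and 89.5 CPM before PMA and 75.7 and 83.8 after 72 h and was not called (-0.10). The largest Jun fall was at chr14:22882895-22883190, from 5.10 and 6.45 to 1.09 and 1.49 CPM (log2 fold change -2.15, SE 0.35). Among regions with a mean CPM of at least 1 and no overlap between times, H3K27ac fell most at chr14:22796586-22797060 in SLC7A7. It went from 3.12 and 1.58 to 0.579 and 0.473 CPM (-2.14, SE 0.45). An H3K27ac region outside that filter was called lower at -2.22. H3K27ac rose in 4 of the 12 regions (background 43.4%) and fell in 4 (background 38.1%).

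MMP1 and MMP3, neighbours in the metalloproteinase cluster of chromosome 11, had no H3K27ac region within 50 kb. No H3K27ac peak was called there in any of the 6 libraries. The 2 Jun regions of the MMP1 window lie 27.2 and 29.1 kb below its span. At chr11:102762505-102762718 Jun had 6 and 5 counts before PMA, 15 and 15 after 6 h and 21 and 33 after 72 h. The change after 6 h was 1.93 (SE 0.61, adjusted p = 0.023), a call lost with DESeq2 and without any of 0 h replicate 1, 0 h replicate 2, 6 h replicate 1, 72 h replicate 1 or 72 h replicate 2 (adjusted p from 0.0501 to 0.109), and after 72 h it was not called (0.59, SE 0.59). It was named after its values were seen. Jun at chr11:102760226-102760839 was at 1.46 and 2.87 CPM before PMA and 3.66 and 3.65 after 72 h and was not called (0.75, SE 0.39), but it was at 1.32 with total counts and without 0 h replicate 2 (adjusted p of 0.00553 and 0.0492). Of the 3 CTCF regions of the MMP1 window 1 was tested and not called, and MMP3 had no tested region for any antibody.

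In the THBS1 window each tested H3K27ac region rose, 10 of 10 (as did 3 of 3 at SERPINB2), with log2 fold changes from 2.46 to 6.39 and a median of 4.64. Among 8154 windows of protein-coding genes with at least 10 tested H3K27ac regions, 2.49% had each one called higher after 72 h. None of the 10 regions, nor of the 3 at SERPINB2, had an H3K27ac peak at 0 or 6 h. H3K27ac peaks in both windows were called at 72 h only. Regions that enter a count through 72 h peaks favour a rise, so the 10 of 10 set against 2.49% is no independent support. The largest change was just upstream of the start at chr15:39579422-39580298, where 0 and 6 counts before PMA became 23 and 31 after 6 h and 380 and 406 after 72 h. The change on the log2 scale was 3.21 after 6 h and 6.39 (SE 0.36) after 72 h, and 8.07 and 11.26 without 0 h replicate 2, which leaves the library with 0 counts. The region over the promoter, chr15:39580390-39580853, rose from 4 and 6 counts to 16 and 29 after 6 h and 172 and 227 after 72 h, with log2 fold changes of 2.22 (SE 0.48) and 4.70 (SE 0.36). No H3K27ac peak was called in the window at 0 or 6 h, and 10 and 7 were called in the 72 h libraries.

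The strongest THBS1 region lies 24.6 kb beyond its 3′ end in the neighbouring gene FSIP1, at chr15:39624110-39625600, with 8 and 18 counts before PMA, 30 and 22 after 6 h and 554 and 634 after 72 h. The change after 72 h was 4.91 (SE 0.26, adjusted p = 4.42e-15). At 6 h it was 1.09 (SE 0.39), a call lost in the fit of 2 time points and without 0 h replicate 1 or 6 h replicate 1 (adjusted p from 0.053 to 0.281), and it was 1.73 without 0 h replicate 2. In this window 7 of 10 H3K27ac regions were called higher after 6 h (background 32.3%) and 10 of 10 between 6 and 72 h (background 33.1%).

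Jun at THBS1 rose in 9 of 12 regions (background 28.0%) and fell in none (background 25.7%) after 72 h. After 6 h it rose in 1 of 12, near the background of 13.1%. None of the 12 had a Jun peak in either 0 h library and each had one at 72 h. Regions that enter a count through 72 h peaks favour a rise. The region upstream of the start, chr15:39579376-39580276, was at 0.729 and 2.29 CPM before PMA, 1.82 and 2.19 after 6 h and 8.56 and 7.94 after 72 h (log2 fold change 2.43, SE 0.37). In FSIP1, chr15:39624645-39625174 went from 10 and 4 counts to 158 and 198 (2.96, SE 0.38). Jun peaks called in both libraries numbered 0 regions of the window before PMA and 8 after 72 h. Rad21 near the start, chr15:39579864-39580327, rose from 6.60 and 3.38 to 14.1 and 10.6 CPM. Its change of 1.27 (SE 0.34) was not called with DESeq2 (adjusted p = 0.0712) or without 72 h replicate 1 (adjusted p = 0.14), and was 2.08 without 0 h replicate 1. CTCF over the same place, chr15:39580072-39580613, was at 18.4 and 14.8 CPM before PMA and 16.8 and 15.4 after 72 h and was not called, with a change of -0.05 whose sign turned with total counts. A Rad21 region of few counts at chr15:39557850-39558049 (11 and 18 before PMA, 4 and 2 after 72 h) fell by 2.41 (SE 0.85), a call lost with DESeq2, with no count filter and without any 1 of the 4 libraries (adjusted p from 0.053 to 0.429).

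Regions of different antibodies were set side by side where they overlapped by at least 1 base. Where a region overlapped more than 1 region of the other antibody, only the one with the highest mean CPM was counted. Of the 32 Jun regions higher at 72 h, 20 (62.5%) overlapped an H3K27ac region that was also higher, against 55.7% of all 37175 higher Jun regions, and 11 overlapped no H3K27ac region. By this count none of the 32 was paired with a lower H3K27ac region, as 0.409% of all higher Jun regions were. Of the 24 lower Jun regions, 9 (37.5%) overlapped a lower H3K27ac region, against 49.8% of all, and 5 (20.8%) a higher one, against 6.59% of all 34212. Of the 15 higher Rad21 regions, 12 (80.0%) overlapped a higher H3K27ac region, against 65.5% of all 12906. The same 15 overlapped a higher Jun region in 6 cases (40%, against 53.6% of all) and a lower one in 5 (33.3%, against 14.9%). They overlapped a CTCF region in 5 of 15 cases (33.3%), against 47.4% of all higher Rad21 regions, and none of these 5 CTCF regions was called. The lower Jun regions of the windows numbered 24 with TMM and 14 with total counts, and these shares were not recounted with total counts. Of the 5 lower Jun regions under higher Rad21, those at the PLAU start and the PLAUR promoter lost their call with total counts. The Rad21 calls at the PLAUR promoter and in ZNF335 were lost with DESeq2. The counts in the windows are small, and no test of these shares against the rest was made.

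**Figure D4:**
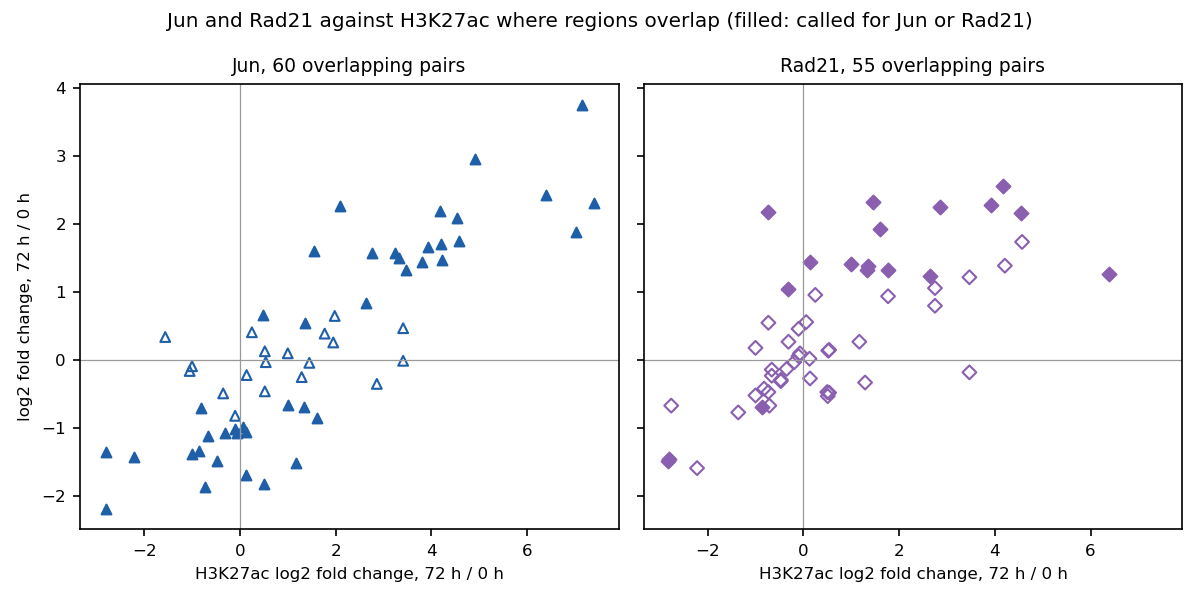
Log2 fold change of 72 h over 0 h of Jun (left, 60 pairs) and Rad21 (right, 55 pairs) against that of the strongest H3K27ac region each overlaps in the windows; filled points are called for Jun or Rad21. Filled Jun points below 0 lie on both sides of 0 in H3K27ac. Among them is the strongest Jun region of PLAUR, at -1.69 for Jun and 0.13 for the H3K27ac region over the start.

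In the deposited peak lists peaks were called per library, and a region counts as peaked at a time when both libraries have a peak overlapping it. By this count 23 of 82 H3K27ac regions of the windows (28.0%, against 22.8% of all regions) gained a peak between 0 h (in neither library) and 72 h (in both). In the same windows 5 lost one (6.1% against 4.91%) and 20 had one at both times (24.4% against 22.3%). For Jun 35 gained a peak (35% against 34.7% of all), 2 lost one (2.0% against 1.21%) and 23 kept one (23.0% against 15.7%). The 72 h Jun libraries held more counts (17245043 and 18883962 over all regions) than the 0 h ones (7952946 and 8600736). For Rad21 7 gained (9.46% against 3.97%), 6 lost (8.11% against 5.55%) and 10 kept a peak (13.5% against 8.66%). For CTCF 1 gained (2.17% against 4.04%), 0 lost (against 1.75%) and 15 kept one (32.6% against 27.4%). For Jun, Rad21 and CTCF the balance of gains and losses differed from that of the count calls. The part of depth in the peak counts was not tested.

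Few CTCF regions were called. Besides the region inside PLAUR, the calls after 72 h were 2 regions in the PLAT window. At chr8:42171377-42172100 CTCF went from 32.4 and 39.0 to 18.2 and 17.1 CPM (log2 fold change -1.01, SE 0.25), and at chr8:42152672-42153241 from 19.6 and 23.5 to 9.22 and 9.69 (-1.18, SE 0.29). Both calls were lost with total counts, with DESeq2 and without any 1 of the 0 h and 72 h libraries (adjusted p from 0.0713 to 0.254). At 6 h edgeR called 0 of 41 regions (background 2.65%), 3 had an unadjusted p under 0.05, DESeq2 also called 0, and total counts gave 1 lower. With total counts the 72 h split was 5 higher and 1 lower. The share of CTCF counts on mitochondrial DNA was 17.8% and 22.1% before PMA and 9.55% and 9.63% after 72 h, and its part was not tested.

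A list of 35 other genes of the same systems was counted by the strongest region within 5 kb of each gene. For H3K27ac at 72 h 23 had a tested region, of which 8 rose and 11 fell (43.4% and 38.1% of all regions did), with a median log2 fold change of -0.35 against 0.18 over all regions. Among the metalloproteinases 1 of 8 tested rose and 6 fell. The riser was MMP28, an epithelial metalloproteinase, from 0.328 ± 0.0174 to 6.30 ± 0.567 CPM (SD, n = 2; log2 fold change 4.24, SE 0.34), and MMP17, a membrane-anchored member, fell from 3.84 ± 0.531 to 0.200 ± 0.0248 (-4.23, SE 0.49). Of 5 inhibitors tested 3 rose and none fell, among them the metalloproteinase inhibitors TIMP4 by 3.17 (SE 0.20) and TIMP2 by 1.34 (SE 0.12). Among plasminogen and its receptors 2 of 5 rose, LRP1 by 1.33 and S100A10 by 1.81, and 3 fell. In the thrombospondin group 2 of 5 rose and 2 fell. THBS2, the closest relative of THBS1, rose from 14 and 9 counts to 917 and 938 (5.73, SE 0.25), and THBS3 fell from 85.6 ± 8.15 to 23.0 ± 0.0233 CPM (SD, n = 2; -1.89, SE 0.11).

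For Jun the same list had 25 tested genes, of which 3 rose and 11 fell at 72 h (28.0% and 25.7% of all regions did), with a median log2 fold change of -0.17 against 0.17 over all regions. The risers included THBS2 (1.90, SE 0.22) and MMP28 (1.78, SE 0.22), and the fallers included TIMP2 (-0.97, SE 0.19), whose H3K27ac rose. For CTCF 2 of 30 tested genes rose and 1 fell (4.07% and 2.72% of all regions), and for Rad21 3 of 28 rose and 3 fell (15.4% and 7.91%). These shares are over all regions and not over the strongest region of each gene.

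Over all regions the libraries held from 12634261 to 27266241 counts for H3K27ac, 4766421 to 18883962 for Jun, 2553677 to 6068421 for CTCF and 4398797 to 7285286 for Rad21, of which the windows took from 0.0414% to 0.0987%. Of 8 genes listed as K562 markers, 8 had a tested H3K27ac region above the median region at 0 h, with a summed signal of 775.4 CPM at 0 h and 413.8 at 72 h. Of 4 fibroblast markers 2 had a tested region, 1 of them above that median (summed 7.20 CPM at 0 h and 24.4 at 72 h). Of 3 monocyte markers 3 had one, 2 above it (84.4 and 127.0), and of 3 lymphocyte markers 2, with 2 above it (20.1 and 14.5). Being above the median thus did not set the K562 list apart from the lymphocyte list. The monocyte receptor gene CSF1R went from 0.989 to 70.5 CPM and the collagen gene COL1A1 from 1.84 to 20.2, while LYZ went from 56.5 to 27.9. The other tested members of these lists were COL1A2, from 5.36 to 4.12 CPM, and CD14, from 26.9 to 28.5. The fibroblast genes DCN and LUM and the lymphocyte gene MS4A1 had no tested region. The part of other cells in the results was not tested.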

How the data were processed

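CUT&RUN-type libraries ("CNR" in the sample titles) were grouped by antibody and time from those titles. The 4 region tables, 1 per antibody, hold raw read counts per region and library deposited by the authors, and the 22 peak lists hold the authors' −log10 q-value per peak, called per library. Trim Galore 0.4.3, BWA 0.7.17, SAMtools 1.9, deepTools 3.0.1, MACS2 and bedtools 2.26 are named, without roles, in the submitters' processing notes, with hg19 and hg38 as builds. How regions were built, and whether duplicates were removed, is not given in the sources used here. Positions on chromosome 20 up to 64331078 are those of hg38, and starts, which count from 0 in the tables, are given from 1.

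Counts were tested with edgeR 4.0.16 (R 4.3.3): filterByExpr, TMM scaling, and a quasi-likelihood fit of all regions and times of an antibody with no replicate block, with Benjamini-Hochberg adjustment over all regions tested. The fits were tested on simulated data, where most changed regions were recovered and the share of false calls lay above the nominal level for H3K27ac and Jun. The simulation changed only a small share of regions, all by the same large factor and none of low mean count. In the real data most H3K27ac and Jun regions were called, so recovery there does not measure power for small changes or low counts. Alternatives were scaling to total counts, DESeq2 1.42.0, no count filter, the replicate block, only the 2 time points compared, and each library left out. Regions named are, per gene and antibody, the one at the start, the strongest, and the called ones with the largest and smallest change at 72 h among those with a mean CPM of at least 1 and no overlap between times. The members, lists and tests were chosen with earlier results of these data known. Intervals on ratios and the floor of 3 counts cover counting error only. Region strand, exons and introns were not used here.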

Additional observations from a re-analysis of the deposited data

Results flagged for a closer look

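One H3K27ac region near PLAUR rose early and then fell below its starting level, so that its 2 contrasts with 0 h had opposite signs. At chr19:43683435-43683694, 13.3 kb upstream of the gene, there were 11 and 10 counts before PMA, 34 and 22 after 6 h and 8 and 3 after 72 h. The log2 fold change was 1.55 (SE 0.57) after 6 h and -1.5 (SE 0.69) after 72 h, and the difference between the later times was -3.05 (SE 0.62, edgeR adjusted p = 0.00015). The rise lost its call with DESeq2 and without 0 h replicate 1, 0 h replicate 2 or 6 h replicate 1 (adjusted p from 0.0562 to 0.285). The fall lost it with total counts, DESeq2, no count filter and without 0 h replicate 1, 0 h replicate 2, 6 h replicate 1 or 72 h replicate 2 (adjusted p from 0.0508 to 0.281), and was -2.33 without 72 h replicate 1. With 2 libraries per group no search for single outlying libraries was made.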

How the results depend on the processing

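The numbers of called H3K27ac regions, over both directions, stayed within 1.5 times of those reported in each comparison under each alternative, but the 17 lower between 6 and 72 h were 6 with DESeq2, 10 without 72 h replicate 1 and 8 without 72 h replicate 2. Other totals moved as follows. With DESeq2 the calls were 16 for Jun at 6 h against 28, 15 for Jun between 6 and 72 h against 24, 1 for CTCF at 72 h against 3, and 6 for Rad21 against 19. Total counts gave 1 CTCF call at 6 h and 6 at 72 h, the replicate block 6 CTCF calls at 72 h (5 lower and 1 higher), and the fit of only the 2 time points compared 13. Leaving out 1 library gave from 37 to 45 calls for H3K27ac at 6 h, 55 to 63 at 72 h and 35 to 47 between them. For Jun it gave 17 to 25, 37 to 61 and 8 to 27 in the same order, with 17 and 18 at 6 h without 0 h replicates 1 and 2, 18 without 72 h replicate 1, 37 at 72 h without 72 h replicate 1, and 8 between 6 and 72 h without either 72 h replicate. For CTCF it gave 0 at 6 h and 0 to 11 at 72 h (0 without 0 h replicate 1, 1 without 0 h replicate 2 or either 72 h replicate, 11 without either 6 h replicate), and for Rad21 7 to 16 (7 and 9 without 72 h replicates 1 and 2). The cause of these moves was not tested, except that leaving out a library leaves fewer samples. Total counts shifted log2 fold changes relative to TMM by 0.34 (H3K27ac at 6 h), 0.23 (H3K27ac at 72 h), 0.20 and 0.56 (Jun), -0.18 and 0.23 (CTCF) and -0.20 (Rad21). Of 83 called region values given in the text, none changed sign in 877 comparisons with alternatives and 98 comparisons, in 27 values, lost the call. Among values not called, the sign turned for H3K27ac at LRP10 beside MMP14 (0.13 with total counts), Jun upstream of PLAUR (0.55 with total counts, 0.19 without 0 h replicate 1 and -0.19 without 0 h replicate 2), Jun inside PLAT (0.22 with total counts) and CTCF at the THBS1 start (0.18 with total counts, 0.12 and -0.16 without 0 h replicate 1 and 2, 0.02 without 72 h replicate 2). Replicate numbers do not pair libraries by any label, and deviations of equal-numbered libraries correlated between -0.008 and 0.124; the block moved no other count by over 1.5 times. Regions of few counts at 0 h limit the fold changes at SERPINB2, MMP9 and THBS1.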

Other observations

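The label that the authors' deposited table gives each region ("up" or "down" in various forms, or static) did not follow the direction of the counts in 3 of the 4 tables. Among all H3K27ac regions labelled up in the authors' deposited table, 72.6% of 24643 had a log2 fold change above 0 at 72 h, and among those labelled down 71.6% of 9327. For Jun the shares in the authors' deposited table were 49.5% of 7074 labelled up and 49.6% of 6986 labelled down, and for CTCF 88.5% of 790 and 94.4% of 36. For Rad21 all 1898 labelled up in the authors' deposited table lay above 0 and none of the 86 labelled down. In the 9 windows, 7 of the 9 H3K27ac regions labelled down in the authors' deposited table had a fold change above 0, and so had 18 of the 19 labelled up. The labels were therefore not used.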
